A study of Mus musculus with 10 samples.

Results

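The genes described here mark the 2 cell layers of brain capillaries, endothelium and the mural cells around it. They are Abcb1a, Cldn5, Pecam1, Flt1, Kdr, Slco1a4, Tek, Cdh5 and Vwf of endothelial cells and Pdgfrb of mural cells, chosen by name as known markers. The choice was made with earlier results of these data known. All probe sets that the platform annotation assigns to these 10 symbols were taken, 16 of the 45037 probe sets on the array that are not controls. Of these, 15 passed a filter on low signals, against 27022 of 45037 in all, and every one of the 10 genes kept at least 1 probe set. The probe set that did not pass was the dimmer one of Cdh5, at 31.0 to 109.

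The study measured hippocampal RNA of 3-week-old mice injected with saline or with kainate, which opens glutamate receptors and causes seizures. The A-CREB mice carried a TetO-A-CREB transgene and are labelled TetO-A-CREB-95 C57BL6 F1/J. A-CREB is a dominant-negative inhibitor of CREB, a transcription factor switched on by cAMP and calcium signals, and the TetO promoter that drives it is active only in cells that also make a tetracycline transactivator. There were 5 groups of 2 arrays each, namely A-CREB mice given saline, 14 or 18 mg/kg kainate, wild-type mice given 14 mg/kg kainate and wild-type mice given saline. The wild-type strain is labelled C57BL6 F1/J on 2 of the 4 wild-type arrays, and no strain label stands on the other 2. The labels name 1 transgenic line and no transactivator strain, so the sources used here do not say which hippocampal cells make A-CREB, nor how long after injection the tissue was taken. Each array held pooled RNA of 3 to 4 mice (20 A-CREB and 14 wild-type mice in all), so errors measure the spread between pools.

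Brain endothelial cells form the blood-brain barrier with tight junctions and with pumps that return drugs and toxins to the blood. VEGF reaches them through the receptors Flt1 and Kdr and the angiopoietins through Tek. Endothelial cells in turn release PDGF-B, which holds pericytes, the mural cells of capillaries, in place through Pdgfrb. In whole tissue, fewer cells of a type and less RNA per cell cannot be told apart.

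The values are deposited MAS5 signals, which have no absolute unit, and each array had been scaled to the same trimmed mean. The arrays numbered 1 had median signals of 94.5 to 106 and those numbered 2 had 134 to 152, in every group alike. Changes are differences of log2(signal + 22) from a limma fit to all 10 arrays, with standard errors, 95% intervals and p-values adjusted over 27022 probe sets, and a probe set counted as called below an adjusted p of 0.05. The average kainate response weights the wild-type response by 0.5 and each of the A-CREB responses, which share their saline arrays, by 0.25. In the A-CREB arrays Creb1 itself had a signal of 1605 to 2307, against 1472 to 1962 in wild type (log2 difference 0.09, SE 0.15). These values do not check the transgene, whose product is not Creb1.

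A-CREB pairs with CREB and keeps it from binding DNA. For the site that CREB binds, the 250 bases before the RefSeq transcription start (GRCm38.p6) were therefore searched on both strands, for its full form, TGACGTCA, and for the half-site TGACG, which lies within the full one on each strand. A sequence was at hand for 6 of the 10 genes, Abcb1a, Cldn5, Flt1, Kdr, Slco1a4 and Tek. Flt1 alone among these 6 held the full site, beginning 81 bases before the start, and it held no half-site beyond those within it. Among all 32851 promoter windows of that length 1.55% held the full site and 17.8% the half-site. The binding core of ETS factors, GGAA, was found in 5 of the 6, all but Cldn5, against 93.4% of all windows. Printed here are Flt1, for its site, Tek and Abcb1a, 2 members with negative kainate estimates, and Apold1, a vascular gene that rose after kainate and holds a half-site. Capitals mark the full or half-site, and each sequence runs 5′ to 3′ on the strand of its gene. Flt1 is chr5:147726012-147726261 on the minus strand, and on the plus strand are Tek at chr4:94739039-94739288, Abcb1a at chr5:8566841-8567090 and Apold1 at chr6:134981751-134982000.
Flt1: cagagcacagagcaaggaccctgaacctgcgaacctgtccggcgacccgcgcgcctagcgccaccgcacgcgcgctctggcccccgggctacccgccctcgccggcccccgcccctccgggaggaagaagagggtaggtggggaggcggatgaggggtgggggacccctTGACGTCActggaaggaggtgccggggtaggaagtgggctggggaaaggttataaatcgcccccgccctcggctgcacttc
Tek: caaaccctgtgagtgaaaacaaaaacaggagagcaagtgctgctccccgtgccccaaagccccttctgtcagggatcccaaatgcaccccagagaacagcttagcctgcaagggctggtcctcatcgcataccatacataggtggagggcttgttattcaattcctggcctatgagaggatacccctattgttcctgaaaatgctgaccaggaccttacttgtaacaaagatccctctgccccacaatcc
Abcb1a: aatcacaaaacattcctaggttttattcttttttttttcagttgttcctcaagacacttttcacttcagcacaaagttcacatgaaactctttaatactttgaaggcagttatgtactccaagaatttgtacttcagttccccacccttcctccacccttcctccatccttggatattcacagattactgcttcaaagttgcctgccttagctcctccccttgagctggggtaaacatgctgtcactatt
Apold1: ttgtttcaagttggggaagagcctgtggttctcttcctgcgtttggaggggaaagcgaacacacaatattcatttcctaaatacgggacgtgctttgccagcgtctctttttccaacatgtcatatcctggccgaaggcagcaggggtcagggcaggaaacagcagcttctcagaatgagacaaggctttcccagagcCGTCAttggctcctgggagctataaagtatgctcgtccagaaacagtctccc
The Apold1 window held 1 half-site, beginning 52 bases before the start. The windows of Tek and Abcb1a held neither form of the site. Of the other vascular genes that rose (Ptgs2, Klf4 and Socs3), Klf4 held a half-site beginning 232 bases before the start, and the windows of Ptgs2 and Socs3 held neither form. The Ptgs2 sequence at hand, which runs on past the start, held 1 half-site that did not lie wholly within the window.

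Across kainate and saline, most of the vascular markers had lower mean signals after kainate, and none passed the test. In the average kainate response 9 of the 10 genes had a negative estimate, of which Tek (-0.64), Pdgfrb (-0.46) and Abcb1a (-0.43) were the lowest, and Flt1 (0.29) was the only positive one. By limma 0 of the 15 probe sets were called, where the background was 0.459% of all probe sets tested. At an unadjusted p under 0.05, 3 of 15 were lower after kainate and 0 higher, with backgrounds of 2.99% and 2.84%. With the replicate number as a block, 5 of the 15 were lower at that level (both probe sets of Abcb1a and of Pdgfrb, and Tek) and 0 higher, where the backgrounds were 7.82% and 5.73%, and again 0 were called. When each kainate array was set against the saline array of its genotype and number, a count added after the data were seen, 5 of the 15 probe sets were lower in all 6 pairs, as were 8.12% of all probe sets. These were both Abcb1a probe sets, Tek, Vwf and the brighter one of Pdgfrb, and the A-CREB pairs share their saline arrays. None of the 15 was higher in all 6 pairs, against 5.44% of all. The median over the 15 probe sets was -0.28, beside -0.03 for all probe sets tested, of which 55.7% had a negative estimate. The sign of Cldn5 turned with quantile or loess normalization, and those of the other 9 genes did not. Over all settings run, Cldn5 was negative in 17 of 23 and Pecam1 in 19 of 21.

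**Figure D1:**
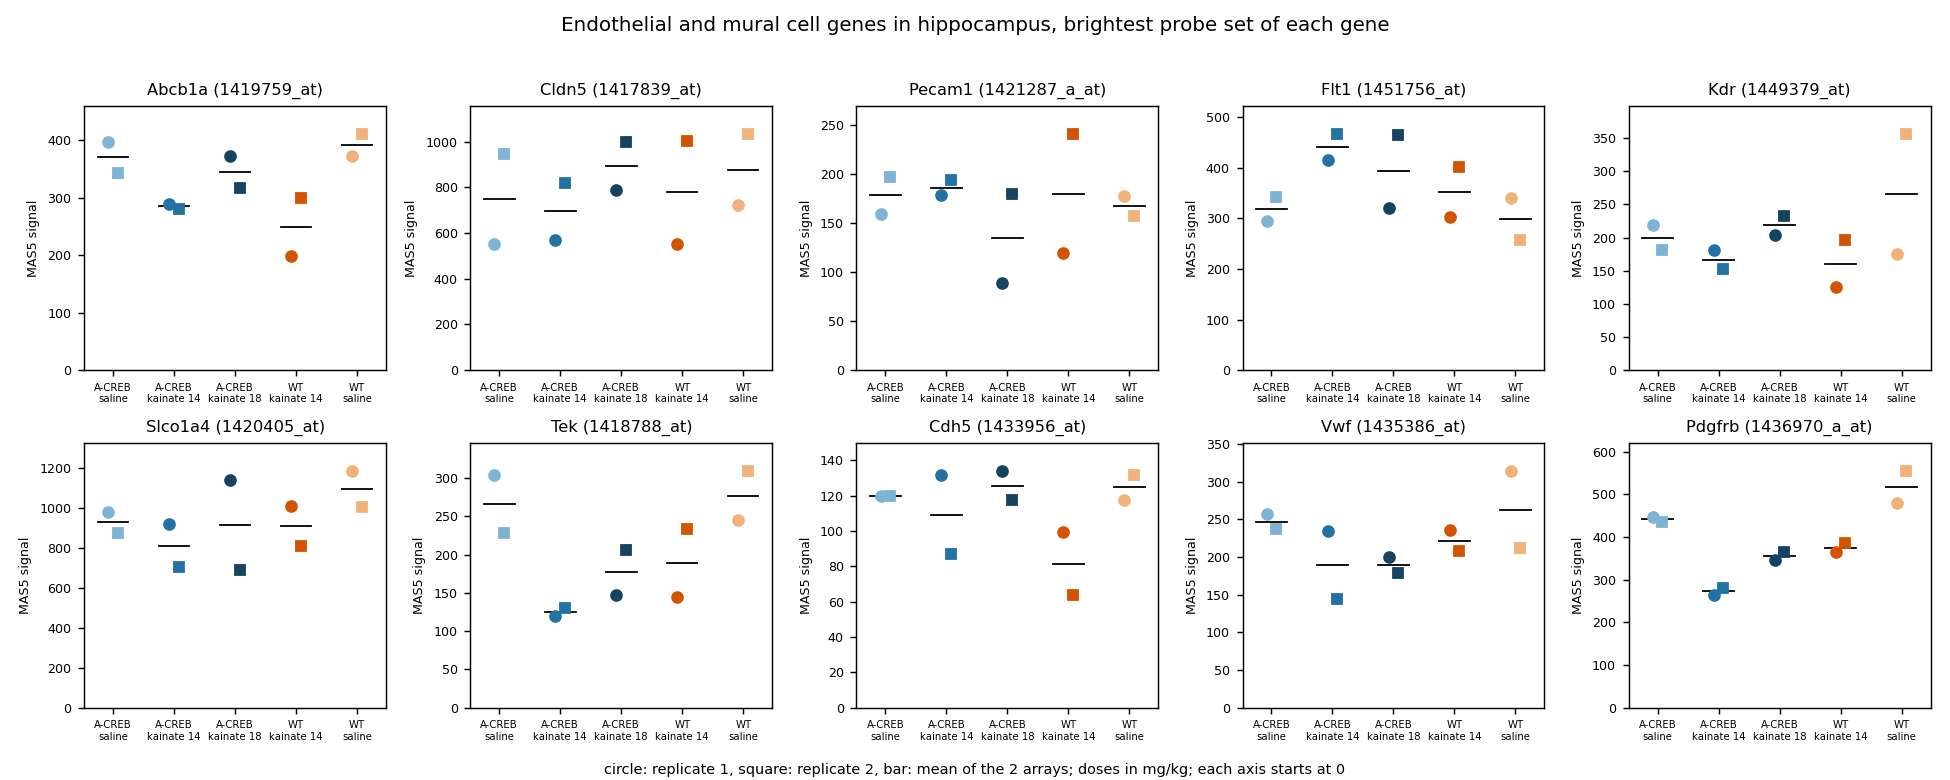
MAS5 signal on each array for the brightest probe set of each gene, by genotype and treatment (kainate in mg/kg). Circles are replicate 1, squares replicate 2 and bars the mean of the 2 arrays. For Pdgfrb the 6 kainate arrays lie between 264 and 387, all below the 4 saline arrays.

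Pdgfrb, the PDGF receptor of pericytes and the only mural gene of the set, had the one member probe set whose kainate and saline arrays did not overlap. In A-CREB mice its brighter probe set gave 448 and 435 after saline, 264 and 281 after 14 mg/kg and 346 and 364 after 18 mg/kg. In wild-type mice it gave 364 and 387 after 14 mg/kg, against 480 and 554 after saline. All 6 kainate arrays lay below all 4 saline arrays, as they did for 1.53% of all probe sets tested. None of the 15 had all kainate arrays above all saline arrays, against 1.58% of all. The average estimate for Pdgfrb was -0.46 (SE 0.13, 95% interval -0.74 to -0.17), or 0.729 of the saline level (0.598 to 0.888), with an adjusted p of 0.395 by limma. A dimmer Pdgfrb probe set gave 21.3 to 110 after kainate and 37.0 to 174 after saline, with overlapping groups, and its estimate of -0.95 had a wide interval of -2.09 to 0.19.

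Tek, the angiopoietin receptor of endothelium, had the lowest estimate among the genes' brightest probe sets. In A-CREB mice it gave 305 and 228 after saline, 119 and 130 after 14 mg/kg and 147 and 207 after 18 mg/kg. Wild-type arrays gave 144 and 233 after 14 mg/kg, against 245 and 309 after saline. On 5 of the 6 kainate arrays Tek was below every saline array, and the sixth, wild-type replicate 2, was above the lower of the A-CREB saline arrays but below the wild-type saline array of its own number. The average estimate was -0.64 (SE 0.21, interval -1.11 to -0.18), with an adjusted p of 0.564 by limma.

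The VEGF receptors had estimates of opposite sign, neither of them called. Flt1, which binds VEGF tightly and, in its soluble form, keeps it from Kdr, was measured by 4 probe sets. In A-CREB mice its brightest gave 294 and 342 after saline, 414 and 466 after 14 mg/kg and 321 and 465 after 18 mg/kg. Wild-type arrays gave 303 and 402 after 14 mg/kg, against 340 and 257 after saline. On 4 of the 6 kainate arrays this probe set was above every saline array, and the average estimate was 0.29 (SE 0.17, interval -0.10 to 0.68). The other Flt1 probe sets disagreed in sign, with estimates of -0.10, 0.16 and -0.22 and intervals that all spanned 0. Which transcript forms each one reads was not analysed here.

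Kdr, the receptor that carries most VEGF signalling in endothelium, gave 125 to 232 after kainate (median 189) and 176 to 356 after saline (median 200). Its groups overlapped, wild-type saline replicate 2 stood highest at 356, and the estimate of -0.33 had an interval of -0.86 to 0.19.

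Among the transporters of the barrier, Abcb1a, the P-glycoprotein efflux pump, was measured by 2 probe sets. In A-CREB mice its brighter one gave 397 and 343 after saline, 289 and 280 after 14 mg/kg and 372 and 316 after 18 mg/kg. Wild-type arrays gave 198 and 300 after 14 mg/kg, against 372 and 410 after saline. On 5 of 6 kainate arrays it was below every saline array, the exception being an A-CREB array at 18 mg/kg. The average estimate was -0.43 (SE 0.16, interval -0.79 to -0.07), with an adjusted p of 0.724 by limma. The second probe set gave 215 to 271 after kainate and 265 to 362 after saline, with an estimate of -0.35 (interval -0.72 to 0.02). Slco1a4, an organic anion transporter of brain capillaries, gave 686 to 1137 after kainate and 872 to 1181 after saline, with an estimate of -0.20 (interval -0.59 to 0.19).

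Of the junction and adhesion genes, Cldn5 and Pecam1 had the estimates nearest to 0. Cldn5, the main claudin of the endothelial tight junction, gave 554 to 1004 after kainate and 552 to 1033 after saline. Its arrays overlapped almost fully, with replicate 2 above replicate 1 in every group, and the estimate of -0.05 had an interval of -0.58 to 0.48. Pecam1, an adhesion molecule of endothelial cell contacts, gave 88.9 to 241 after kainate, wider on both sides than the 158 to 198 after saline (estimate -0.07, interval -0.66 to 0.51). Cdh5, the cadherin of endothelial adherens junctions, gave 63.7 to 134 after kainate and 118 to 132 after saline. Of the Cdh5 kainate arrays 4 were below and 1 above every saline array (estimate -0.28, interval -0.82 to 0.26). Vwf, the clotting factor stored by endothelium, gave 145 to 236 after kainate and 212 to 314 after saline, with 4 kainate arrays below every saline array (estimate -0.28, interval -0.72 to 0.16).

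**Figure D2:**
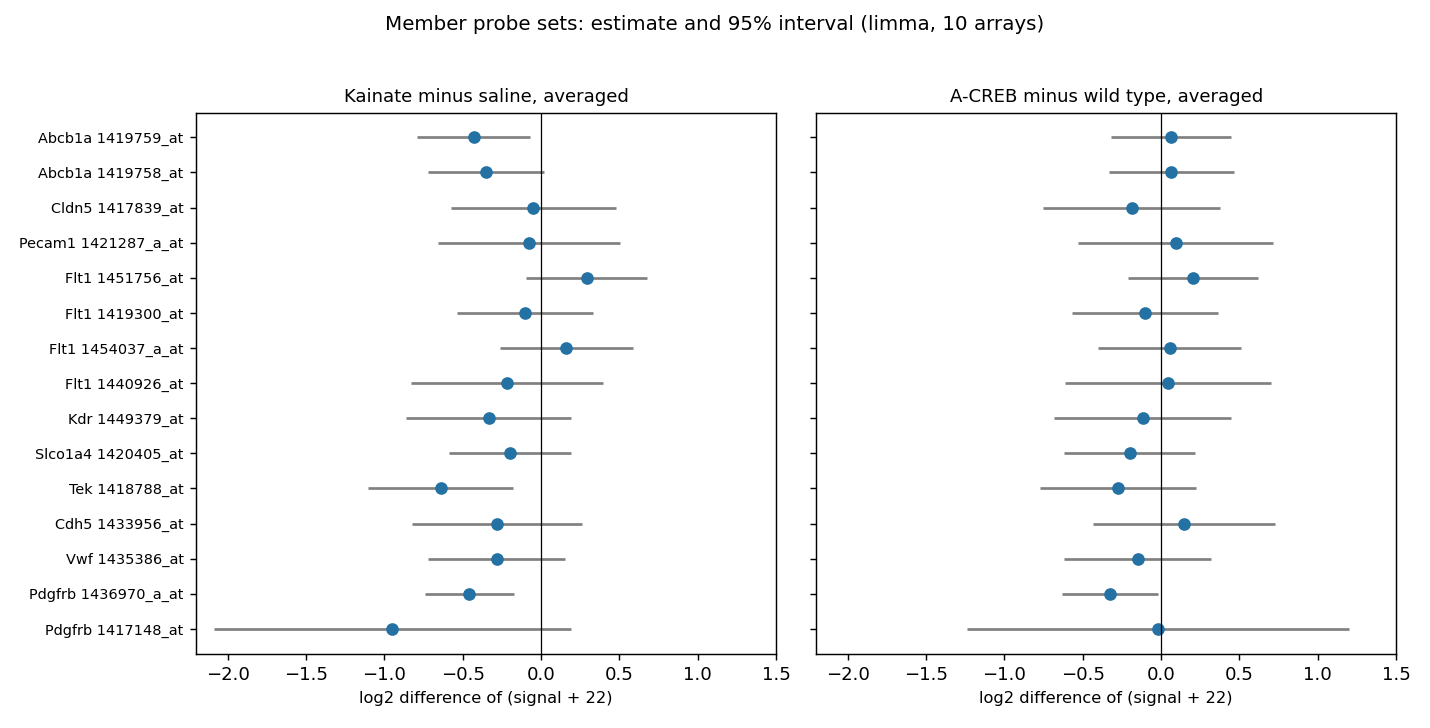
Estimates (points) and 95% intervals (lines) of the 15 member probe sets, as differences of log2(signal + 22), from 1 fit to 10 arrays. The left side shows the average of kainate minus saline. The right side shows the average of A-CREB minus wild type, in which the A-CREB arrays given the higher dose carry no weight. On the left 13 of 15 points lie below 0, and the intervals of Tek, the brighter Abcb1a and the brighter Pdgfrb probe set end below 0. On the right 8 of 15 lie below 0.

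Taken dose by dose, no member probe set was called in any single kainate comparison (0 of 15 in each), and the comparisons within A-CREB share their saline arrays. In wild-type mice at 14 mg/kg, 12 of 15 probe sets had negative estimates with a median of -0.28 (-0.04 for all tested), and 0.0629% of all probe sets were called. Abcb1a was lowest there, at -0.63 (SE 0.24, interval -1.18 to -0.09), and Pdgfrb had -0.44 (SE 0.19). In A-CREB mice at 14 mg/kg, 12 of 15 were negative with a median of -0.20 (-0.03 for all), where 0.181% were called. Tek was lowest at that dose, at -0.97 (SE 0.31, adjusted p = 0.929 by limma), which is 0.512 of the saline level (0.314 to 0.833), and Pdgfrb had -0.65 (SE 0.19, adjusted p = 0.718 by limma). In A-CREB mice at 18 mg/kg, 9 of 15 were negative with a median of -0.10 (-0.00103 for all), where 0.0703% were called. At that dose Tek had -0.54 (SE 0.31), Pdgfrb -0.30 (SE 0.19) and Cldn5 0.29 (SE 0.36). By unadjusted p alone, under 0.05, the numbers of probe sets lower after kainate were 2 in wild type (background 1.2%), 2 in A-CREB given the lower dose (1.7%) and 0 in A-CREB given the higher dose (0.851%). None of the 15 was higher at that level in wild type (background 1.52%), in A-CREB given the lower dose (2.12%) or in A-CREB given the higher dose (1.62%).

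The 2 doses could be compared in A-CREB mice alone. Between 18 and 14 mg/kg, 6 of 15 probe sets had negative estimates (median 0.14), 0 were called, and the background was 0%. The intervals were wide, for example -0.28 to 1.13 for Tek (estimate 0.43) and -0.08 to 0.79 for Pdgfrb (estimate 0.36). The difference between the A-CREB and the wild-type response to 14 mg/kg was not called for any member either (0 of 15, background 0%). For Tek that difference was -0.44 (interval -1.43 to 0.56), for Pdgfrb -0.22 (interval -0.83 to 0.39) and for Abcb1a 0.28 (interval -0.49 to 1.05). No probe set had an unadjusted p under 0.05 between the doses (0 of 15, background 0.496%) or for the difference of the responses (0 of 15, background 0.596%).

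A-CREB and wild-type mice had overlapping signals for every member. Averaged over the saline and the 14 mg/kg pairs, 0 of 15 probe sets were called, where 1 probe set of the whole array (0.0037%) was, and the median was -0.02. The estimates ran from -0.32 for Pdgfrb (SE 0.14, interval -0.63 to -0.02, adjusted p = 0.9999 by limma) to 0.20 for Flt1 (SE 0.18, interval -0.21 to 0.62) among the brightest probe sets. Pdgfrb was the 1 member of 15 with an unadjusted p under 0.05, where 0.699% of all probe sets were lower in A-CREB at that level and 1.07% higher. In no member did all 4 A-CREB arrays of these pairs lie below or above all 4 wild-type arrays, which 0.711% and 0.799% of all probe sets did.

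In mice given saline the median member estimate for A-CREB minus wild type was -0.06, and the estimates of the brightest probe sets ran from -0.31 for Kdr to 0.09 for Flt1. After 14 mg/kg the median was 0.07, and they ran from -0.49 for Tek (interval -1.20 to 0.21) to 0.34 for Cdh5 (interval -0.48 to 1.16). In both of these comparisons 0 of 15 were called by limma, where the background was 0%. At an unadjusted p under 0.05 they also held 0 of 15, with backgrounds of 1.26% after saline and 1.01% after 14 mg/kg.

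Other genes of the vessel wall were taken from 8 lists that hold endothelial genes beyond the members, barrier transporters and junction genes, VEGF and angiopoietin or PDGF ligands and receptors, endothelial transcription factors, activation genes, mural genes and basement membrane genes. Of 108 such genes tested, 4 rose in the average kainate response and 0 fell, where 0.551% of all genes rose. Of all probe sets tested only 2 fell, so the count of 0 says nothing particular about these genes. The 4 that rose were Ptgs2, Klf4, Apold1 and Socs3. The lists were chosen with earlier results of these data known, so these shares are no independent test. Which cells of the tissue the rise came from was not tested. When the replicate number entered the fit as a block, 9 of the 108 rose, against a background of 1.38%. The further 5 genes were the glucose transporter Slc2a1 and the lactate transporter Slc16a1 of the blood-brain barrier, Ctla2a, Lcn2 and Adamts1, the last named after its values were seen.

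**Figure D3:**
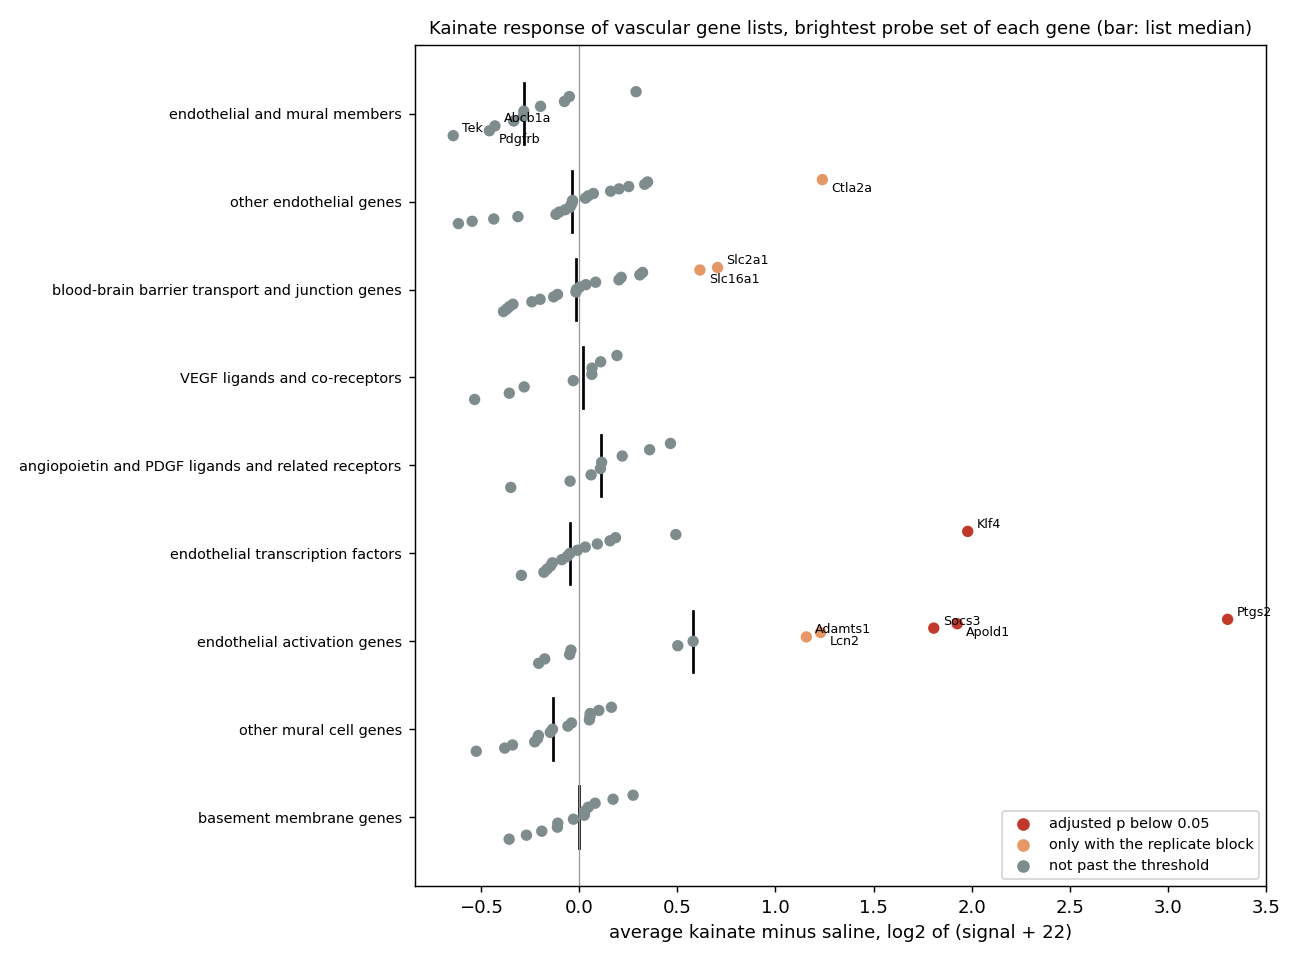
Average kainate minus saline difference of log2(signal + 22) for the brightest probe set of each gene (points), by list, with the list median as a bar. Red points passed the adjusted p of 0.05, orange points only with the replicate block. The 4 red points are Ptgs2 (3.30), Klf4 (1.98), Apold1 (1.93) and Socs3 (1.81), and the members' median is -0.28.

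Of the endothelial activation genes, 3 of 11 rose and 0 fell, with a list median of 0.58 beside -0.03 for all genes. Ptgs2, the inducible cyclooxygenase that endothelium and also neurons make, gave 490 and 502 in A-CREB mice after saline, 4561 and 6297 after 14 mg/kg and 2463 and 6252 after 18 mg/kg. In wild-type mice it gave 4575 and 4760 after 14 mg/kg, against 428 and 385 after saline. All kainate arrays were above all saline arrays, and Ptgs2 rose 9.87-fold on average (6.83 to 14.3, log2 3.30, SE 0.24, adjusted p = 0.000393 by limma).

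Apold1, an immediate early gene of endothelial cells, gave 153 and 304 in A-CREB mice after saline, 1301 and 933 after 14 mg/kg and 671 and 1250 after 18 mg/kg. In wild-type mice it gave 874 and 735 after 14 mg/kg, against 193 and 258 after saline. All kainate arrays were above all saline arrays, and Apold1 rose 3.80-fold (2.60 to 5.55, log2 1.93, SE 0.24, adjusted p = 0.00857 by limma). Socs3, the feedback inhibitor of cytokine signalling, gave 406 to 789 after kainate and 91.0 to 206 after saline and rose 3.50-fold (log2 1.81, SE 0.23, adjusted p = 0.00953 by limma). Without wild-type kainate replicate 1 the adjusted p was 0.0612 for Apold1 and 0.0667 for Socs3, so that both lost the call, with log2 changes of 1.87 for Apold1 and 1.70 for Socs3.

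Klf4, a flow-sensitive transcription factor of endothelium that other cell types also induce, was the 1 of 15 endothelial transcription factors that rose. It gave 257 and 281 in A-CREB mice after saline, 1704 and 1343 after 14 mg/kg and 903 and 2044 after 18 mg/kg. In wild-type mice it gave 1073 and 795 after 14 mg/kg, against 302 and 265 after saline. All kainate arrays were above all saline arrays, and Klf4 rose 3.94-fold (log2 1.98, SE 0.22, adjusted p = 0.00482 by limma). The median of its list was -0.05.

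**Figure D4:**
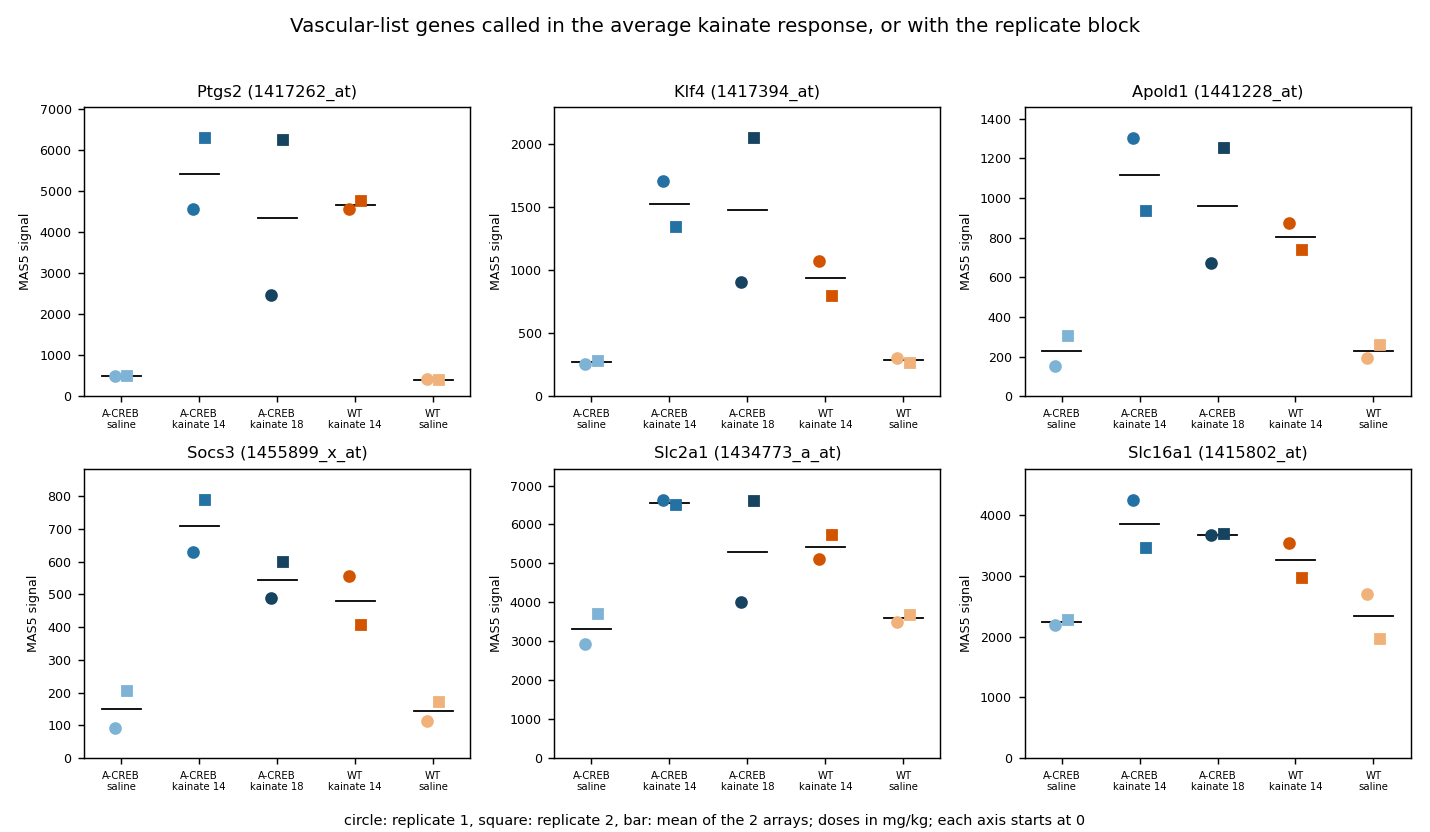
MAS5 signal on each array (circles replicate 1, squares replicate 2, bars the mean of 2) for 6 vascular genes, by genotype and treatment (kainate in mg/kg). In all 6 panels the 6 kainate arrays lie above the 4 saline arrays, for Ptgs2 at 2463 to 6297 after kainate and 385 to 502 after saline.

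The barrier transporters Slc2a1 and Slc16a1 also had all kainate arrays above all saline arrays. Slc2a1, the glucose transporter of endothelium and of glia, gave 3998 to 6627 after kainate and 2921 to 3688 after saline (log2 0.71, SE 0.15, adjusted p = 0.151 by limma, and 0.00646 with the block). Slc16a1, a carrier of lactate and ketone bodies, gave 2977 to 4255 after kainate and 1968 to 2712 after saline (log2 0.62, SE 0.13, adjusted p = 0.138 by limma, and 0.00803 with the block). The other 17 of the 19 barrier genes passed neither fit, and the median of the list was -0.01.

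None of the ligands that act on the member receptors was called. Of 8 VEGF ligands and co-receptors 0 rose or fell (median 0.02), with Vegfa at 0.07 (interval -0.29 to 0.43) and the lymphatic ligand Vegfc at -0.53 (interval -1.04 to -0.03). Of 8 angiopoietin and PDGF ligands and related receptors 0 rose or fell (median 0.11), with the Tek ligands Angpt1 at 0.22 (interval -0.23 to 0.67) and Angpt2 at 0.47 (interval -0.17 to 1.10).

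Of 20 other endothelial genes 0 were called without the block (median -0.03). Ctla2a, a protease inhibitor, had the highest estimate, at 1.24 (SE 0.32, adjusted p = 0.308 by limma, and 0.0207 with the block). Its groups overlapped, at 804 to 1922 after kainate and 299 to 1108 after saline. The highest saline array was A-CREB saline replicate 2, and 4 kainate arrays were above every saline array. Podxl, a sialomucin of the luminal surface, gave 175 to 225 after kainate and 241 to 371 after saline, so that all kainate arrays were lower (estimate -0.54, SE 0.18, adjusted p = 0.572 by limma). The mural genes beside Pdgfrb (0 of 15 called, median -0.14) and the basement membrane genes (0 of 12 called, median -0.00123) held no call in either fit. Of the 15 mural genes 10 had negative estimates, the lowest being Ndufa4l2 at -0.52 (SE 0.30). Des had -0.38 (SE 0.34), Cspg4 -0.34 (SE 0.21), Zic1 -0.23 (SE 0.27) and Notch3 -0.21 (SE 0.20). Ifitm1 had -0.21 (SE 0.28), Tbx18 -0.15 (SE 0.29), Atp13a5 -0.14 (SE 0.17), Kcnj8 -0.06 (SE 0.28) and Higd1b -0.04 (SE 0.26). The positive ones were Acta2 at 0.16 (SE 0.19), Vtn at 0.10 (SE 0.14) and Rgs5 at 0.06 (SE 0.15), with Abcc9 at 0.06 (SE 0.20) and Tagln at 0.05 (SE 0.26).

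In single comparisons the numbers of these 108 genes that rose were 1 in wild type at 14 mg/kg (Ptgs2, background 0.106%), 2 in A-CREB at 14 mg/kg (Ptgs2 and Klf4, background 0.264%) and 1 in A-CREB at 18 mg/kg (Ptgs2, background 0.121%). With the block they were 3, 7 and 4, with backgrounds of 0.43%, 0.868% and 0.423%. Klf4, Apold1 and Socs3 had estimates of 1.63, 1.75 and 1.62 in wild type at 14 mg/kg. In A-CREB mice the estimates were 2.40, 2.24 and 2.18 at 14 mg/kg and 2.25, 1.98 and 1.81 at 18 mg/kg.

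By limma 0 of the 108 genes were called between the genotypes in any comparison, with or without the block. Over all probe sets tested, the genotype average held 1 call, and 2 with the block. The comparisons after saline and after 14 mg/kg each held 0, and 1 with the block. The difference of the responses held 0 in both fits. The counts of 0 therefore say nothing particular about the vascular genes. At an unadjusted p under 0.05, 2 of the 108 were higher in A-CREB in the genotype average and 0 lower, with backgrounds of 0.966% and 0.906% of all genes. The A-CREB minus wild-type difference of the responses to 14 mg/kg was 0.77 for Klf4 (interval -0.32 to 1.85), 0.49 for Apold1 (interval -0.68 to 1.66) and -0.08 for Ptgs2 (interval -1.22 to 1.06). Angpt1 gave 189 to 361 in A-CREB and 140 to 203 in wild type and had the highest average genotype estimate of its list, 0.61 (SE 0.21, adjusted p = 0.9999 by limma).

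Markers of other cells in the hippocampus held 0 called genes in the average kainate and the average genotype comparison, over 8 of 8 astrocyte, 10 of 10 microglia and macrophage, 7 of 8 oligodendrocyte, 8 of 8 neuron, 10 of 10 choroid plexus, 10 of 10 fibroblast and meningeal and 4 of 8 blood cell markers tested. Of these 57 genes, 0 had an unadjusted p under 0.05 for kainate by limma, where 3.18% of all genes were higher and 3.65% lower. For genotype 7 were higher in A-CREB, against 0.966% of all genes, and 1 was lower, against 0.906%. The summed signal of the 10 members was 3152 to 3846 after kainate and 3729 to 4425 after saline. For astrocytes the sum was 65312 to 72677 after kainate and 59660 to 66943 after saline. For neurons it was 63112 to 75363 after kainate and 68067 to 79752 after saline, and for choroid plexus 25888 to 46700 after kainate and 27722 to 34614 after saline. The microglia sum was 12983 to 18280 in A-CREB and 11189 to 12748 in wild type. For the 4 blood cell markers tested the sum was 815 to 1717 in A-CREB and 576 to 1040 in wild type. The median genotype estimate was 0.39 for blood cells, 0.30 for microglia and -0.32 for choroid plexus. No defining marker tested was at 0, the lowest being 31.5 in the fibroblast list. The part of these cells in the members' values was not tested.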

How the data were processed

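Hippocampal RNA on 10 Affymetrix Mouse Genome 430 2.0 arrays was analysed in 5 groups of 2, as the labels give them. The deposited values are intensity, as MAS5 signals on a linear scale made with MAS5 in GCOS, per the submitters' processing notes (the sources used here give no version or settings). Each array's trimmed mean came to 500.002 to 500.003, so no further scaling was applied. Of 45101 probe sets 64 controls were left out, and 932 named several genes and 9160 none in GEO's platform annotation. The number of arrays limits the precision.

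Signals were taken as log2(signal + 22), 22 being the 20th percentile of all signals, which lowers the fold of dim genes. Probe sets in the upper 60% of mean signal were fitted with limma 3.58.1 in R 4.3.3 (5 group means, 5 residual degrees of freedom, eBayes with trend), two-sided, with Benjamini-Hochberg adjustment within each of 9 comparisons and a threshold of 0.05. Nothing in the labels says that the 2 arrays of a group came from separate experiments. Arrays of the same number deviated together (r 0.52 to 0.63 over 10 pairs of groups, and 10 of 10 arrays correlated best with one of their own number), so the numbers pair the arrays, and the fit with the number as a block is given where it changes a call.

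Alternatives were other pseudocounts (5.5 and 88), no filter, a filter at the upper 40%, cyclic loess and quantile normalization, a fit with no trend, robust eBayes, only the compared groups, 1 probe set per gene, leaving out probe sets with the suffix _x_at, _s_at or _a_at, the block, and leaving out each array. Genes outside the members are described by their brightest tested probe set. Those named from the vascular lists were drawn from the genes with the smallest p in their list (up to 3 for kainate, 2 for genotype). Outside that rule, all mural genes tested were given, and Adamts1 was named. The members and lists were chosen with earlier results of these data known. The procedure was also run on simulated data with independent noise on each array. That simulation lacked the shared deviation of arrays with the same number. Promoters are from RefSeq. Plots were drawn with matplotlib.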

Additional observations from a re-analysis of the deposited data

How the results depend on the processing

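No member probe set was called in any of the 9 comparisons under the main setting or any of 22 others (207 counts of 0). Between genotypes or doses, and for the difference of the responses, the main fit called 0 or 1 of all 27022 probe sets. Counts of 0 in those comparisons therefore say nothing particular about the members. The lowest adjusted p was 0.0861, for Pdgfrb in the average kainate response with the replicate block, where Tek had 0.114 and Abcb1a 0.217. In that response Abcb1a, Kdr, Slco1a4, Tek, Cdh5, Vwf and Pdgfrb stayed negative and Flt1 positive under all settings run, with ranges of -0.80 to -0.49 for Tek and -0.51 to -0.39 for Pdgfrb. Cldn5 was negative in 17 of 23 settings and Pecam1 in 19 of 21. The count of other vascular genes called was 4 in the main fit and 9 with the replicate block, and 2 to 6 with 1 array left out, the 2 without wild-type kainate replicate 1 and the 6 without A-CREB 18 mg/kg replicate 1. The block changed no call of a member. Over all probe sets the average kainate response held 124 calls, 366 with the block, 75 without the intensity trend and 61 without wild-type kainate replicate 1. Causes were not tested. With 2 arrays per group, intervals of the single comparisons are wide, and dim probe sets (the second ones of Pdgfrb and Cdh5) lie near the pseudocount.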

Other observations

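The mean profile of the 10 members over the 10 arrays, after subtracting the mean of each replicate number, was highest in wild-type saline replicate 1 (0.74 standardised units) and lowest in A-CREB 14 mg/kg replicate 2 (-0.85). Among 13238 other genes, those closest to this profile were Armc6 (r = 0.96), Nlrx1 (0.96), Pou3f2 (0.95), Suox (0.95) and Ppp1r26 (0.95). Without the subtraction the r of Armc6 was 0.33, and those of the other 4 ran from 0.90 to 0.92. The arrays share their groups and replicate numbers, so these values describe the 10 arrays and carry no test.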
